A study of Mus musculus with 2 samples.

Results

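The immediate early genes followed here were read in single nuclei of ischaemic muscle. They are Fos, Fosb and Fosl2, then Jun, Junb and Jund, and last Egr1, Atf3, Ier2 and Nr4a1. They make up 10 of the 32285 genes counted, they were matched by symbol, and all 10 were found. They were picked with the counts of these 2 libraries in view, so every difference between the libraries is given as a description and none is tested. Male mice with chronic kidney disease, 16 to 20 weeks of age, gave the tibialis anterior, a shin muscle, 5 days after ligation of the femoral artery. One library is labelled AHRfl/fl and the other AHRmKO, where AHR is the aryl hydrocarbon receptor, a ligand-activated transcription factor. The strain label is the same for both: AHRtm3.1Bra/J, a floxed Ahr allele, bred with Tg(ACTA1-cre/Esr1*)2Kesr/J, a Cre recombinase fused to an oestrogen receptor under a skeletal actin promoter, so the Cre is driven in muscle fibres and not in the other cells of the muscle. Each group has 1 library. The number of animals, the dosing that activates the Cre and the way kidney disease was induced are not given in the sources used here.

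FOS and JUN proteins are leucine zipper transcription factors that pair to form AP-1, which binds DNA at the sequence TGANTCA. FOS proteins bind as partners of a JUN protein, whereas JUN proteins can also pair with each other. Cells switch these genes on within minutes of a growth factor, calcium influx, injury or stress, without first making new protein, and the transcripts are short-lived. In muscle they respond to contraction, injury and the activation of satellite cells, and they are also known to be induced while tissue is dissected and nuclei or cells are isolated.

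The starts of 8 of the 10 genes were matched in RefSeq promoter windows on GRCm38.p6, of which the 250 bases before the start were searched. The bases just upstream of 6 of them are shown because they hold the elements through which signals to CREB and ATF proteins are known to reach these genes. Capitals mark the motif TGACG, the core of the cAMP response element (CRE), or its reverse complement CGTCA, and in Jun the related TGACATCA. All are written in the direction of transcription. The starts used for Atf3 and Nr4a1 lie inside the genes as annotated below, so their windows are not upstream of the whole gene. The start used for Fosb also lies just inside its annotated gene, which runs up to base 19310051, so that window overlaps the gene at its edge.
Fos (chr12:85473790-85473889, plus strand): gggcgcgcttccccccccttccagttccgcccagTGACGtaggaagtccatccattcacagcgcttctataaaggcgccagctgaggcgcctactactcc
Fosb (chr7:19310046-19310145, minus strand): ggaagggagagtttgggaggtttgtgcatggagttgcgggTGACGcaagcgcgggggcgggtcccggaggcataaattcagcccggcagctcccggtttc
Jun (chr4:95052223-95052322, minus strand): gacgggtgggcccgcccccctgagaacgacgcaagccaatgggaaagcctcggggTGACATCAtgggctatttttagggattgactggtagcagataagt
Junb (chr8:84978749-84978898, minus strand): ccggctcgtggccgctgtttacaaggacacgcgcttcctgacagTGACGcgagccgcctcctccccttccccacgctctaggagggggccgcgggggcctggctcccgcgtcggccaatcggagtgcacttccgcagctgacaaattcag
Atf3 (chr1:191183334-191183483, minus strand): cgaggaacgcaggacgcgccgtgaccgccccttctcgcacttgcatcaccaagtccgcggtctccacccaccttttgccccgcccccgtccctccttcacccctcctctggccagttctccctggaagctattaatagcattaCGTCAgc
Nr4a1 (chr15:101266746-101266845, plus strand): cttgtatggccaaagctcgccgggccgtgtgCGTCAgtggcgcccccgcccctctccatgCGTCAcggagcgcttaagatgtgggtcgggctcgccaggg

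On either strand, TGACG was present in 5 of the 8 windows (Fos, Fosb, Junb, Atf3 and Nr4a1) and in 17.8% of 32851 promoter windows of the same length. The nearest copies lie at -66 in Fos, -60 in Fosb, -106 in Junb, -7 in Atf3 and -40 in Nr4a1, where -1 is the base before the start and the copy's leftmost base is counted. The element TGACNTCA was found in Jun alone, at -45, against 7.49% of all windows. GCGNGGGCG, a site that EGR proteins recognise, was in the windows of Fosb, Fosl2 and Nr4a1, against 4.70% of all windows. The letters TATAAA stand at -33 in Fos, against 7.59% of windows. The full CRE TGACGTCA (1.55% of all windows), which contains TGACG, the AP-1 site TGANTCA (6.75%), the CArG box bound by serum response factor (1.47%) and the ETS core CCGGAAGT (2.88%) were not found in these 8 windows. Bases further upstream than 250 were not searched, nor were the promoters of Egr1 and Ier2, which had no matched window. Matches describe letters only, and factor binding was not measured in these samples.

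Most of the genes are short. In the GENCODE M21 annotation of GRCm38, Fos (ENSMUSG00000021250) spans 3384 bases of chromosome 12, from 85473890 to 85477273 on the plus strand, in 4 exons. Fosb (ENSMUSG00000003545) spans 7356 bases of chromosome 7 in 4 exons. Jun, Junb, Jund and Ier2 have 1 exon each, and the median coding gene spans 17403 bases. Nr4a1, Fosl2 and Atf3 are longer than that, at 20527, 22042 and 47744 bases. For Nr4a1 (101254269 to 101274795) and Atf3 (191170296 to 191218039) these spans hold the promoter windows shown above. The starts used for those windows are thus internal to the annotated genes, and the spans are not counted from them. The 3′ untranslated ends of early response transcripts are known for AU-rich elements, which speed decay. At least 3 copies of ATTTA were present in the 3′ untranslated region of 5 of the 10 genes, against 32.1% of 20636 coding genes. Fos has 4, of which an overlapping pair at bases 653 to 661 of that region is shown in capitals, within bases 632 to 661: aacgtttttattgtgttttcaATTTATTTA.

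Neighbours on the other strand overlap 4 of the genes. Junos overlaps Jun, Prdx2 overlaps Junb, Gm11175 overlaps Jund and Gm24748 overlaps Atf3, and the use of read strand in counting is not given in the sources used here. A UMI (unique molecular identifier) marks 1 captured RNA molecule, and CPM is counted per 1000000 UMIs. In nuclei, Junos was at 63.7 and 86.1 CPM (AHRfl/fl first), higher in the library labelled AHRmKO as Jun was, Prdx2 was at 45.5 and 11.5 CPM, and Gm11175 had 5 and 6 UMIs. The values of Jun and Junb are uncertain to that extent.

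Barcodes with at least 2000 UMIs were taken as nuclei. There were 19056 in the library labelled AHRfl/fl, with a median of 3803.5 UMIs, and 9015 in the library labelled AHRmKO, with a median of 3596. Only 43 barcode sequences were in both. The median mitochondrial share was 0.970% and 2.66%. Levels are UMIs of a gene per 1000000 UMIs of the nuclei summed (CPM), and paired values give the library labelled AHRfl/fl first throughout. Intervals are 95% and cover counting error only. The targeted gene, Ahr, was at 31.8 and 35.3 CPM over all nuclei and at 11.5 and 28.3 CPM in myofibre-like nuclei. These are counts per gene, which need not fall when part of a gene is deleted, so they cannot decide whether the deletion took place. Both libraries are called by their labels.

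Clusters were built without the 10 genes and named from markers. Macrophage-like nuclei numbered 6112 and 2596, satellite-like nuclei (the stem cells of muscle) 4289 and 2943, fibroblast-like nuclei 1799 and 727, myofibre-like nuclei 496 and 2331, and endothelial-like nuclei 341 and 227. Immature myonucleus-like nuclei numbered 4012 and 18 and are not among the 5 classes compared. Cluster 11, with 136 and 107 nuclei, carried 10 of 10 adipocyte markers, at 0.624% and 0.729% of its UMIs. It stayed unnamed because Ebf1, from the B cell marker list, and no adipocyte marker was among its 10 leading genes. The B cell list, which does not mark B cells alone here, was at 0.612% and 0.601% in cluster 11. In fibroblast-like nuclei it was at 0.363% and 0.472%. Fibroblast-like and endothelial-like nuclei are 1 cluster each and cluster 11 is mixed. The other classes rest on different clusters in each library. Macrophage-like nuclei of the library labelled AHRfl/fl lay mostly in clusters 0 and 15 (3416 and 1602 nuclei) and those of the other library in cluster 17 (2140), whose leading genes include Fosb. Most satellite-like nuclei labelled AHRfl/fl are in clusters 9, 12 and 16, and most of those labelled AHRmKO in clusters 10, 13 and 19. Among myofibre-like nuclei these are cluster 6 against clusters 21 and 23. Markers of myofibres made up 0.430% and 0.231% of the UMIs of fibroblast-like nuclei, 0.346% and 0.222% in macrophage-like nuclei and 0.522% and 1.29% in satellite-like nuclei. Macrophage markers were at 0.202% and 0.0433% in fibroblast-like, 0.190% and 0.0357% in satellite-like, 0.154% and 0.0435% in myofibre-like and 0.312% and 0.0884% in endothelial-like nuclei. Myofibre-like nuclei also differed in their own markers, at 2.91% and 6.47%, and in those of immature myonuclei, at 0.313% and 0.918%. The part of these markers in the levels was not tested. For the mitochondrial share, leaving out nuclei above 5% and likely doublets gave a log2 ratio of Fos over all nuclei of 3.88, on the scale defined with Fos.

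Fos, the founding member of its family, had 1448 and 11608 UMIs over all nuclei, which is 16.1 and 265 CPM. The level was thus 16.5-fold higher in the library labelled AHRmKO, and the interval of the log2 ratio ran from 3.97 to 4.12. A higher sum can come from more expressing nuclei or from more RNA per nucleus, which the sums cannot tell apart. The log2 ratios are taken after 0.5 CPM is added to both levels, and the intervals are for the ratio without it. Fibroblast-like nuclei had 20.6 and 649 CPM of Fos, macrophage-like nuclei 24.8 and 331 CPM, and satellite-like nuclei 11.8 and 239.6 CPM. Every class was higher in the library labelled AHRmKO, and no interval of a class in one library met one in the other. Endothelial-like nuclei had 16.9 and 209 CPM, on 31 and 255 UMIs. The lowest class of that library, myofibre-like nuclei, was at 103 CPM against 9.97 CPM (1196 and 26 UMIs), a log2 ratio of 3.30 (2.81 to 3.99).

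Within the library labelled AHRfl/fl, Fos ran from 24.8 CPM in macrophage-like nuclei to 6.05 CPM in immature myonucleus-like nuclei, and no class stood above the next beyond its interval. In the library labelled AHRmKO the order was fibroblast-like, cluster 11 (549 CPM), macrophage-like, satellite-like, endothelial-like and myofibre-like. There each class was above the next beyond its interval, except that satellite-like and endothelial-like nuclei overlapped. Over single clusters of at least 50 nuclei, Fos ranged from 4.70 to 49.7 CPM in 18 clusters of the first library and from 53.6 to 649 CPM in 12 clusters of the second. These levels did not overlap, but their intervals did. The highest of the first, cluster 2, had an interval of 41.9 to 58.5 CPM, and the lowest of the second, cluster 9, rests on 37 UMIs.

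Fosb is a close relative of Fos that also gives a truncated form, which builds up on repeated stimulation. It had 439 and 7302 UMIs over all nuclei, or 4.88 and 167 CPM, a 34.2-fold difference. Fibroblast-like nuclei had 11.7 and 759 CPM, a log2 ratio of 5.96 (5.75 to 6.30), the highest of the 10 genes over the 5 compared classes. In macrophage-like nuclei Fosb was at 3.96 and 146 CPM, in satellite-like nuclei at 5.38 and 126 CPM, and in endothelial-like nuclei at 8.72 and 99.2 CPM. Cluster 11 had 0 and 395 UMIs of Fosb, the latter 707 CPM. Set against a floor of 3 UMIs in the library labelled AHRfl/fl, 3.07 CPM, that is at least 229.9-fold higher. Myofibre-like nuclei had 2 and 456 UMIs, a log2 ratio of 4.97 whose interval is 3.82 to 8.73. The 12 clusters of the second library, from 18.5 to 759 CPM, all lay above the 18 of the first, from 0 to 11.7 CPM.

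Fosl2, also called FRA-2, is a FOS relative that is usually made later and kept longer. Its levels were 26.7 and 42.3 CPM over all nuclei, a 1.59-fold difference. Endothelial-like nuclei had the most in both libraries, 57.3 and 125 CPM, and fibroblast-like nuclei came next with 39.4 and 85.1 CPM. These 2 classes passed 2-fold, with log2 ratios of 1.12 and 1.10 (0.89 to 1.33). Both are near that limit: thinning every nucleus to 2000 UMIs gave 0.92 for endothelial-like nuclei, and leaving out nuclei of high mitochondrial share and likely doublets gave 0.93 for fibroblast-like nuclei. The remaining classes stood at 21.4 and 36.9 CPM (macrophage-like), 21.4 and 33.2 CPM (satellite-like) and 24.6 and 32.9 CPM (myofibre-like).

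**Figure D1:**
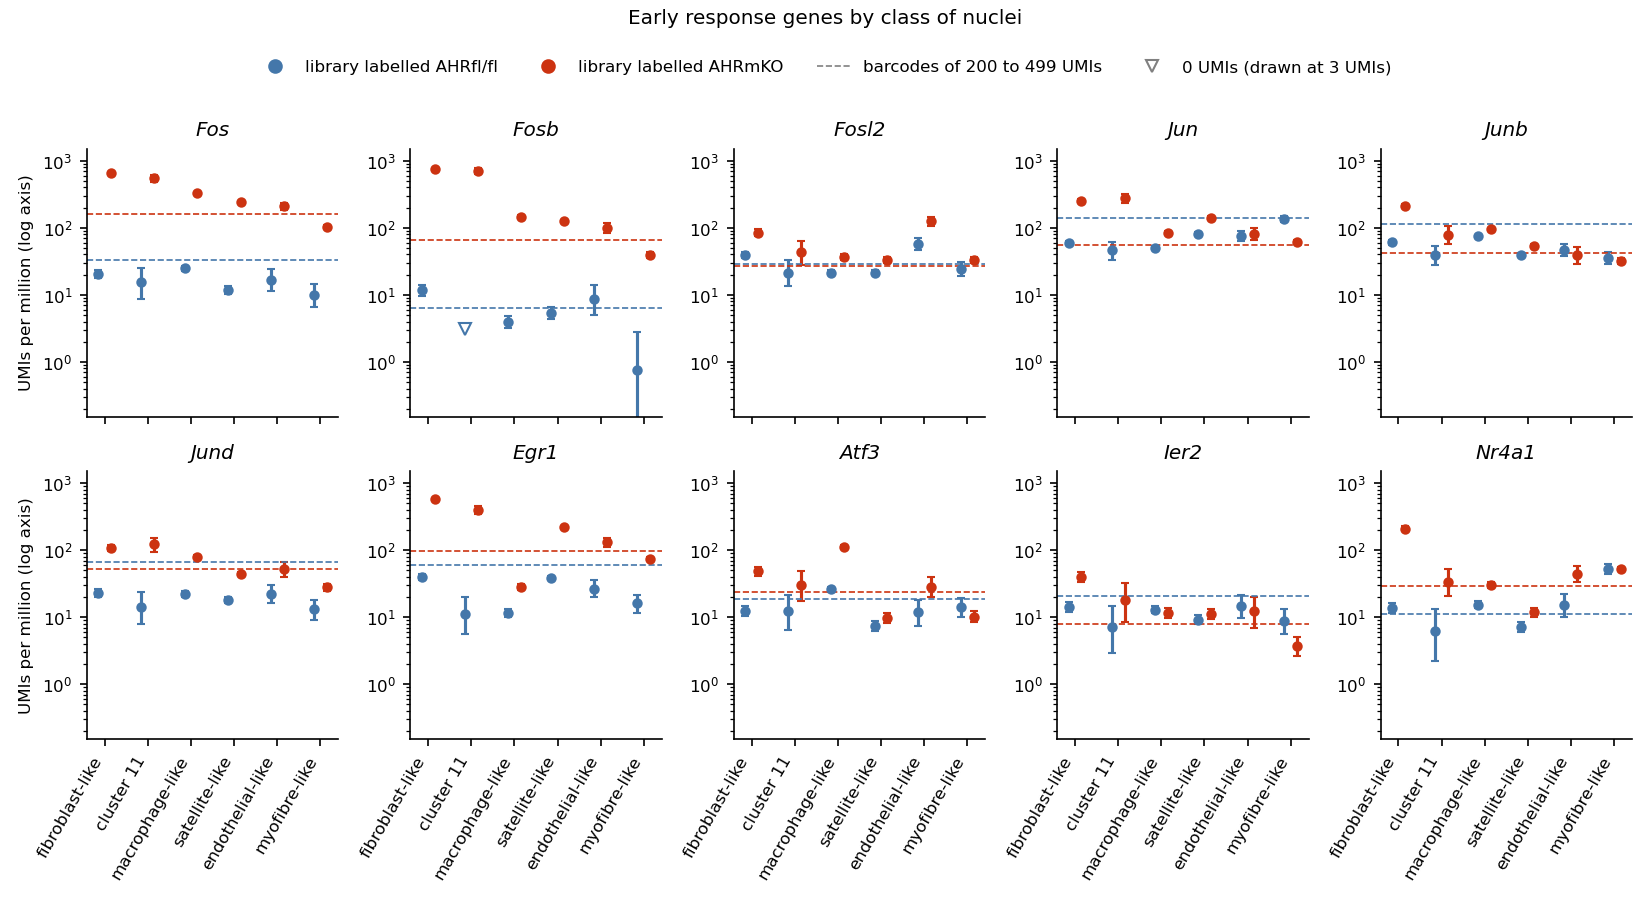
Levels of the 10 genes in CPM on a log axis, by class, with the library labelled AHRfl/fl in blue and the library labelled AHRmKO in red; bars are 95% Poisson intervals, dashed lines the barcodes of at least 200 and under 500 UMIs of each library, and the open triangle marks 0 UMIs. Fos and Fosb are higher in red in every class, while Jun and Ier2 are lower in red in myofibre-like nuclei.

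Jun, the main partner of FOS in AP-1, was at 66.1 and 113 CPM over all nuclei, on 5951 and 4924 UMIs. Fibroblast-like nuclei had 59.2 and 254 CPM, a log2 ratio of 2.09 (1.95 to 2.26), and cluster 11 had 46.1 and 275 CPM. Satellite-like nuclei, with 81.2 and 141 CPM, and macrophage-like nuclei, with 50.1 and 85.1 CPM, were higher by less than 2-fold. The satellite-like log2 ratio of 0.80 turned in clusters 9 and 12, which hold 50 and 48 AHRmKO nuclei. It was -0.87 (-1.46 to -0.34) in cluster 9 and -0.69 (-1.42 to -0.06) in cluster 12. Other shared satellite-like clusters did not turn. Cluster 19 (321 and 1025 nuclei) gave 0.21 (-0.07 to 0.50). Cluster 10 (47 and 917 nuclei) gave 1.59 (0.67 to 2.73). In endothelial-like nuclei Jun was at 75.8 and 81.1 CPM, and the interval of the log2 ratio, -0.29 to 0.48, includes 0. Myofibre-like nuclei were the highest class for Jun in the library labelled AHRfl/fl, at 137 CPM, and the lowest in the other, at 61.0 CPM. That log2 ratio of -1.16 (-1.35 to -0.98) changed with the choice of clusters. It became -0.26 in cluster 6 alone and 0.69 in cluster 21 alone, and 0.12 when each library was clustered by itself.

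Junb, a JUN protein that restrains growth in many cells, was at 48.5 and 72.4 CPM over all nuclei. Fibroblast-like nuclei had 60.5 and 213 CPM, a 3.51-fold difference. Macrophage-like nuclei had 74.4 and 95.1 CPM and satellite-like nuclei 38.8 and 54.2 CPM, each less than 1.5-fold apart. In cluster 19, a satellite-like cluster, the levels of Junb were 73.9 and 50.1 CPM, with a log2 ratio of -0.56 (-0.96 to -0.15). Endothelial-like nuclei (46.9 and 39.3 CPM) and myofibre-like nuclei (36.1 and 31.6 CPM) had log2 ratios of -0.25 and -0.19, and both intervals include 0. In cluster 6 alone the myofibre-like ratio of Junb was 1.32 (0.62 to 2.01).

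Jund, the JUN protein that resting cells keep at a steadier level, was at 18.7 and 56.1 CPM. It passed 2-fold in all 5 compared classes, from a log2 ratio of 1.06 in myofibre-like nuclei to 2.22 in fibroblast-like nuclei (22.9 and 109 CPM). Macrophage-like nuclei had 22.1 and 79.9 CPM, satellite-like nuclei 18.1 and 44.2 CPM, endothelial-like nuclei 22.4 and 51.6 CPM and myofibre-like nuclei 13.04 and 27.8 CPM. In the library labelled AHRfl/fl the highest class was only 1.76-fold above the lowest, the narrowest span there of the 9 genes with a UMI in every class. The satellite-like ratio of 1.27 was -0.72 in cluster 9 alone, on 89 and 6 UMIs, and 0.63 in cluster 19 alone. Thinning to 2000 UMIs took the endothelial-like ratio to 0.48, and leaving out nuclei of high mitochondrial share and likely doublets took it to 0.77. The myofibre-like ratio was between 0.67 and 0.98 in 5 of the alternatives.

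Egr1, a zinc finger factor that is induced beside Fos by the same kinases, was at 23.9 and 155 CPM (2149 and 6801 UMIs), 6.51-fold apart. Its log2 ratio was 3.84 (3.70 to 4.02) in fibroblast-like nuclei, at 40.2 and 583 CPM. Satellite-like nuclei had 37.9 and 220.0 CPM, endothelial-like nuclei 26.7 and 131 CPM, and myofibre-like nuclei 16.1 and 74.2 CPM. Macrophage-like nuclei, with 11.6 and 28.0 CPM, were the lowest named class in both libraries. For Fos they were the highest named class in the first library and the next after fibroblast-like nuclei in the second. In the first library neither place was clear of the next class: for Egr1 their interval was 10.2 to 13.1 CPM, against 11.6 to 21.8 CPM in myofibre-like nuclei. In the second library both places were clear beyond the intervals. In the library labelled AHRmKO fibroblast-like nuclei had 20.9 times the Egr1 of macrophage-like nuclei. The macrophage-like log2 ratio of 1.23 was between 0.48 and 0.99 in 6 of the alternatives, the lowest in cluster 14 alone, and 1.98 in nuclei of at least 4000 UMIs. The myofibre-like log2 ratio of 2.17 joins clusters that differ. It was 5.44 in cluster 6 alone and 0.60 (-0.39 to 1.82) in cluster 21 alone, on 8 and 559 UMIs.

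Atf3, a stress-induced factor that represses as well as activates, showed another order of classes. Over all nuclei it was at 15.9 and 42.7 CPM. Macrophage-like nuclei were the highest named class in both libraries, at 26.1 and 112 CPM, a log2 ratio of 2.08 (1.95 to 2.24), which was 1.34 in nuclei of at least 4000 UMIs and 1.27 in cluster 14 alone. Fibroblast-like nuclei had 12.5 and 48.9 CPM and endothelial-like nuclei 22 and 35 UMIs. Satellite-like nuclei had 7.42 and 9.61 CPM of Atf3, and myofibre-like nuclei 14.2 and 10.2 CPM with an interval of -1.01 to 0.10. In cluster 6 alone the levels of Atf3 were 15.5 and 70.3 CPM, and the log2 ratio was 2.15 (1.30 to 3.02). The satellite-like log2 ratio of 0.35 became 1.63 without clusters 16 and 19.

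Ier2, a small nuclear protein of the early response, was at 9.72 and 11.8 CPM over all nuclei, a log2 ratio of 0.26 (0.12 to 0.44). Free RNA, which lies outside nuclei, was read from barcodes of few UMIs. With its profile subtracted the ratio was 0.90 (barcodes of at least 200 and under 500 UMIs) or 3.14 (at most 100 UMIs). Of the 5 compared classes only fibroblast-like nuclei were at least 2-fold higher, with 14.2 and 40.1 CPM (142 UMIs in each library). In macrophage-like, satellite-like and endothelial-like nuclei the intervals include 0. Myofibre-like nuclei had 8.82 and 3.70 CPM, on 23 and 43 UMIs, and that log2 ratio of -1.15 turned to 1.44 in cluster 6 alone and to 0.45 with the libraries clustered separately.

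Nr4a1, an orphan nuclear receptor that exercise and nerve activity are known to induce in muscle, was at 16.1 and 45.1 CPM. Its log2 ratio over all nuclei, 1.46, was 0.9987 in those of at least 4000 UMIs, just under 2-fold. The highest class in the library labelled AHRfl/fl was myofibre-like nuclei, at 52.6 CPM, with immature myonucleus-like nuclei next at 19.2 CPM. In the other library fibroblast-like nuclei led with 210.3 CPM, against 13.7 CPM in the first, a log2 ratio of 3.89 (3.67 to 4.21), and myofibre-like nuclei had 52.4 CPM. The myofibre-like ratio of 0.00 joins clusters that differ. Cluster 6 had 54.8 and 155 CPM (log2 ratio 1.49), while in the second library cluster 21 had 22.5 CPM and cluster 23 had 160.6 CPM. Macrophage-like and satellite-like nuclei, with log2 ratios of 0.95 and 0.71, were below 2-fold. The macrophage-like ratio was between 1.02 and 1.29 in 5 alternatives and 0.40 in nuclei of at least 4000 UMIs, and the satellite-like ratio was 1.28 without clusters 16 and 19. In cluster 9 alone the satellite-like ratio was -1.48 (-7.12 to 0.82), on 30 and 1 UMIs.

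Counted together, 6 of the 10 genes were at least 2-fold higher over all nuclei of the library labelled AHRmKO, where 3.86% of 20409 genes with at least 20 UMIs were. The group was chosen on this contrast, so nothing follows from that excess. Fibroblast-like nuclei had 10 of 10 (5.51% of genes tested), endothelial-like nuclei 7 (5.09%), macrophage-like nuclei 5 (3.97%) and satellite-like nuclei 4 (5.17%). Myofibre-like nuclei had 4 higher (16.5%) and 2 lower (18.1%). The median log2 ratio of the 10 genes was 2.16 in fibroblast-like, 1.21 in endothelial-like, 1.09 in macrophage-like, 0.75 in satellite-like and 0.20 in myofibre-like nuclei, where the medians of all genes tested lay between -0.21 and -0.03. Fos, Fosb, Jund and Egr1 were past 2-fold in all 5 classes, whereas Jun, Junb and Ier2 were higher by that much in fibroblast-like nuclei alone of the 5. Of those calls, Egr1 in macrophage-like and Fosb in myofibre-like nuclei had no value after subtraction of either free RNA profile. Fos and Egr1 in myofibre-like and Fos in satellite-like nuclei had none after subtraction of the profile of at most 100 UMIs, nor had Jund in myofibre-like nuclei after the other. The myofibre-like call of Egr1 was not met in cluster 21 alone, with a log2 ratio of 0.60 (-0.39 to 1.82).

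**Figure D2:**
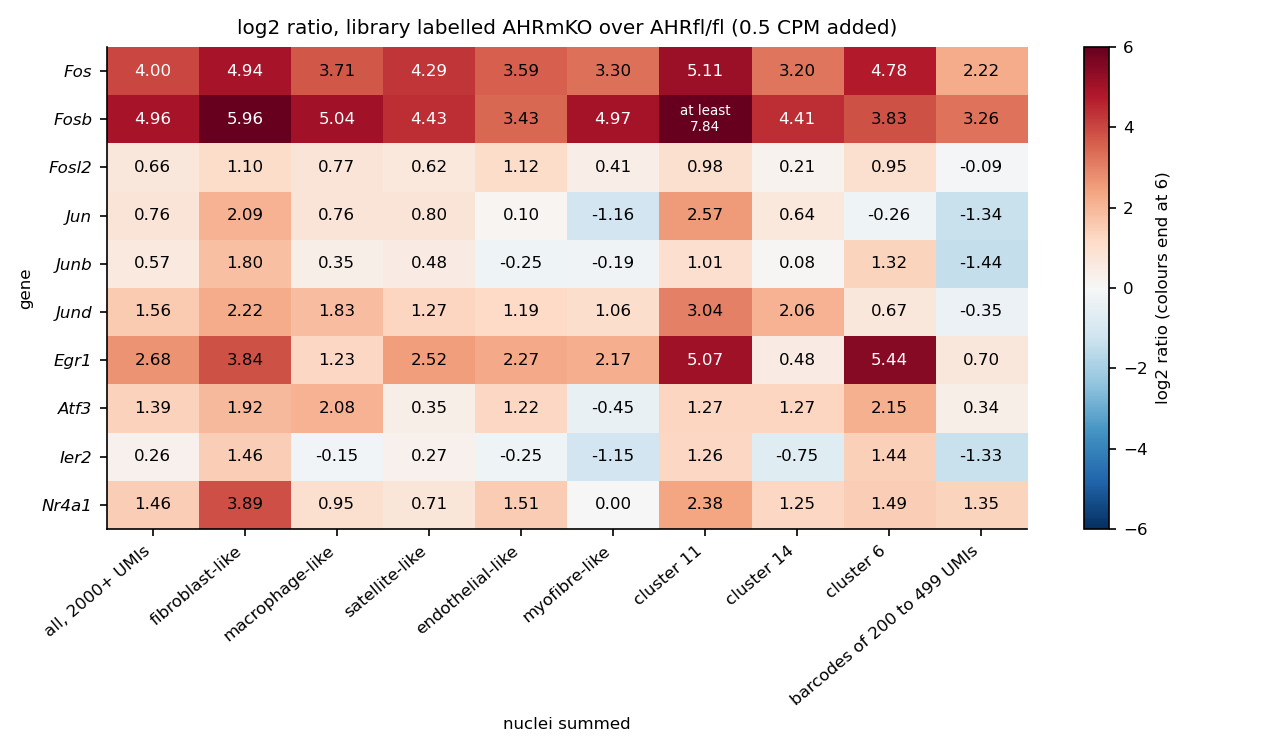
Log2 ratio of each gene, library labelled AHRmKO over AHRfl/fl with 0.5 CPM added, for all nuclei, the classes, 3 single clusters and the barcodes of at least 200 and under 500 UMIs; red is higher and blue lower in the library labelled AHRmKO, and Fosb in cluster 11 is a lower bound. The fibroblast-like column is above 1 for all 10 genes, and Jun, Junb and Ier2 are below -1 in those barcodes.

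Clusters that hold nuclei of both libraries allow the comparison within 1 cluster. In cluster 14, macrophage-like nuclei led by cell division genes (573 and 402 nuclei), Fos was at 29.3 and 274 CPM, Fosb at 5.08 and 118 CPM and Jund at 16.8 and 71.8 CPM, while Egr1 (10.9 and 15.5 CPM), Junb (57.8 and 61.0 CPM) and Fosl2 (23.8 and 27.6 CPM) had intervals that include 0. Here 5 of 10 genes passed 2-fold, against 3.04% of genes tested. In cluster 6, myofibre-like nuclei whose leading genes include Trim63 and Fbxo32 (442 and 71 nuclei), Fos was at 10.0 and 289 CPM, Egr1 at 14.2 and 640.1 CPM, Atf3 at 15.5 and 70.3 CPM and Junb at 35.2 and 88.8 CPM. There 6 of the 9 genes with at least 20 UMIs passed 2-fold, against 7.43%. Cluster 11 had 8 of 9 past it, against 9.12%, with Egr1 at 11.3 and 395 CPM and Jund at 14.3 and 122 CPM. Genes entered on UMIs summed over both libraries. Fos (15 and 307 UMIs), Fosb (0 and 395), Egr1 (11 and 221) and Jund (14 and 68) thus passed through the library labelled AHRmKO. Atf3 (12 and 17) and Nr4a1 (6 and 19) reached 20 UMIs only in the sum. Junb was just past 2-fold, at 1.01 (0.36 to 1.68). As the group was chosen on this contrast, nothing follows from the counts in clusters 14, 6 and 11. Satellite-like nuclei of the library labelled AHRmKO that fell in cluster 9 with the first library's nuclei (1119 and 50) had less Fos, 53.6 CPM against 6.42 CPM, than the nuclei of cluster 13, at 293 CPM. Those 50 nuclei had a median of 11694.5 UMIs. Over the group's genes tested in cluster 9 the median log2 ratio was -0.13, against -0.08 over all genes tested. It was 0.23 against -0.17 in cluster 12, 0.74 against -0.23 in cluster 19 and 1.55 against 0.04 in cluster 10. Fos, Fosb and Egr1 were at least 2-fold higher in clusters 9, 12 and 19, and Nr4a1 was too in cluster 12. In cluster 10 (47 and 917 nuclei) 8 of 10 genes were, all but Fosl2 and Atf3, on 0 to 11 AHRfl/fl UMIs each. Nr4a1 was at least 2-fold lower in cluster 9 (30 and 1 UMIs), and Ier2 in cluster 19 (19 and 35 UMIs). The share over all genes is not given for clusters 9, 10, 12 and 19, so these calls have no background beside them.

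Barcodes with at least 200 and under 500 UMIs, called low barcodes here, were read as a measure of free RNA. There were 79956 and 138289 of them. From the myofibre markers in macrophage-like and endothelial-like nuclei, free RNA of their profile was estimated at 20.8% and 27.7% of UMIs, and at 35.9% and 22.8% with the profile of barcodes of at most 100 UMIs. In these barcodes Fos was at 33.6 and 158 CPM, Fosb at 6.45 and 66.1 CPM and Egr1 at 59.9 and 97.7 CPM. Jun, at 141 and 55.6 CPM, Junb, at 115 and 41.8 CPM, Ier2, at 20.9 and 8.02 CPM, and Jund, at 66.1 and 51.9 CPM, were lower in the library labelled AHRmKO, the reverse of their direction over nuclei. At 2-fold, 3 of the 10 genes (Fos, Fosb and Nr4a1) were higher there, where 9.75% of genes tested were, and 3 were lower, where 24.7% were. Low barcodes of the libraries thus differed in Fos, Fosb and Nr4a1 in the same direction as nuclei. So did, by less than 2-fold, Egr1 (log2 ratio 0.70, 0.63 to 0.78) and Atf3 (0.34, 0.20 to 0.49). Fos was 4.71-fold higher in them and 16.5-fold higher in nuclei.

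Set against these barcodes, nuclei of the libraries lay on opposite sides. Of the library labelled AHRfl/fl, 8 of the 10 genes were lower in nuclei than in the low barcodes beyond their intervals, with a median log2 ratio of -1.05, and Nr4a1 alone was higher (16.1 against 11.2 CPM). Jund had the lowest ratio, -1.79. In the library labelled AHRmKO all 10 were higher in nuclei, with a median of 0.71 and Fosb at 1.33. Fibroblast-like nuclei of that library were above the low barcodes for all 10 genes, by 3.51 for Fosb, 2.82 for Nr4a1 and 2.57 for Egr1. Myofibre-like nuclei of the same library were below them for 7 genes, Fos among them (103 against 158 CPM, log2 ratio -0.62), and above for Fosl2, Jun and Nr4a1. Macrophage-like nuclei of that library were above for 8 genes, by 2.20 for Atf3, and below for Egr1, at -1.79. In the first library the genes above the low barcodes were Atf3 and Nr4a1 in macrophage-like nuclei, Nr4a1 in myofibre-like (2.18) and immature myonucleus-like nuclei, Fosb and Fosl2 in fibroblast-like nuclei and Fosl2 in endothelial-like nuclei.

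**Figure D3:**
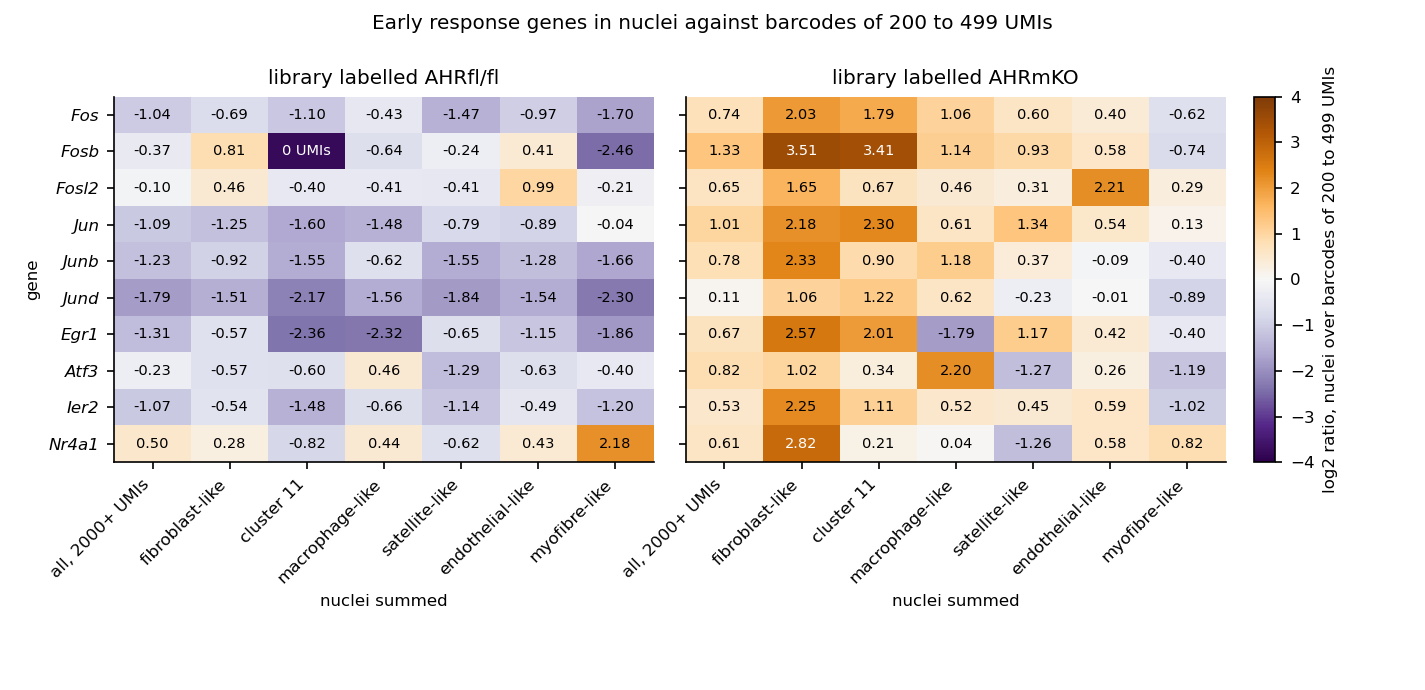
Log2 ratio of each gene in nuclei over the low barcodes of the same library, for all nuclei and by class, with 0.5 CPM added; orange is higher in nuclei and purple lower. Purple prevails in the library labelled AHRfl/fl and orange in the library labelled AHRmKO, in which myofibre-like nuclei are below 0 for 7 of the 10 genes.

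Levels were also followed over bands of barcode depth that start at 1, 200, 500, 1000, 2000, 4000 and 8000 UMIs, the first ending at 100. Fos in the library labelled AHRmKO was at 267, 158, 247, 461, 358, 255 and 179 CPM in these bands. It thus peaked in barcodes just below the limit used for nuclei. Over all nuclei of that library Fos was at 265 CPM, which is not above the 267 CPM of barcodes of at most 100 UMIs. The library labelled AHRfl/fl gave 37.3, 33.6, 32.2, 27.0, 19.8, 13.5 and 15.6 CPM, with no such peak. Nr4a1 and Atf3 of the library labelled AHRmKO had their highest level in the same band, at 83.7 and 54.7 CPM. Jun of the library labelled AHRfl/fl was highest in the band from 500 UMIs, at 146 CPM, and lowest in the deepest, at 56.8 CPM. The deepest nuclei, of 8000 or more UMIs, still had 179 against 15.6 CPM of Fos and 142 against 5.91 CPM of Fosb.

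**Figure D4:**
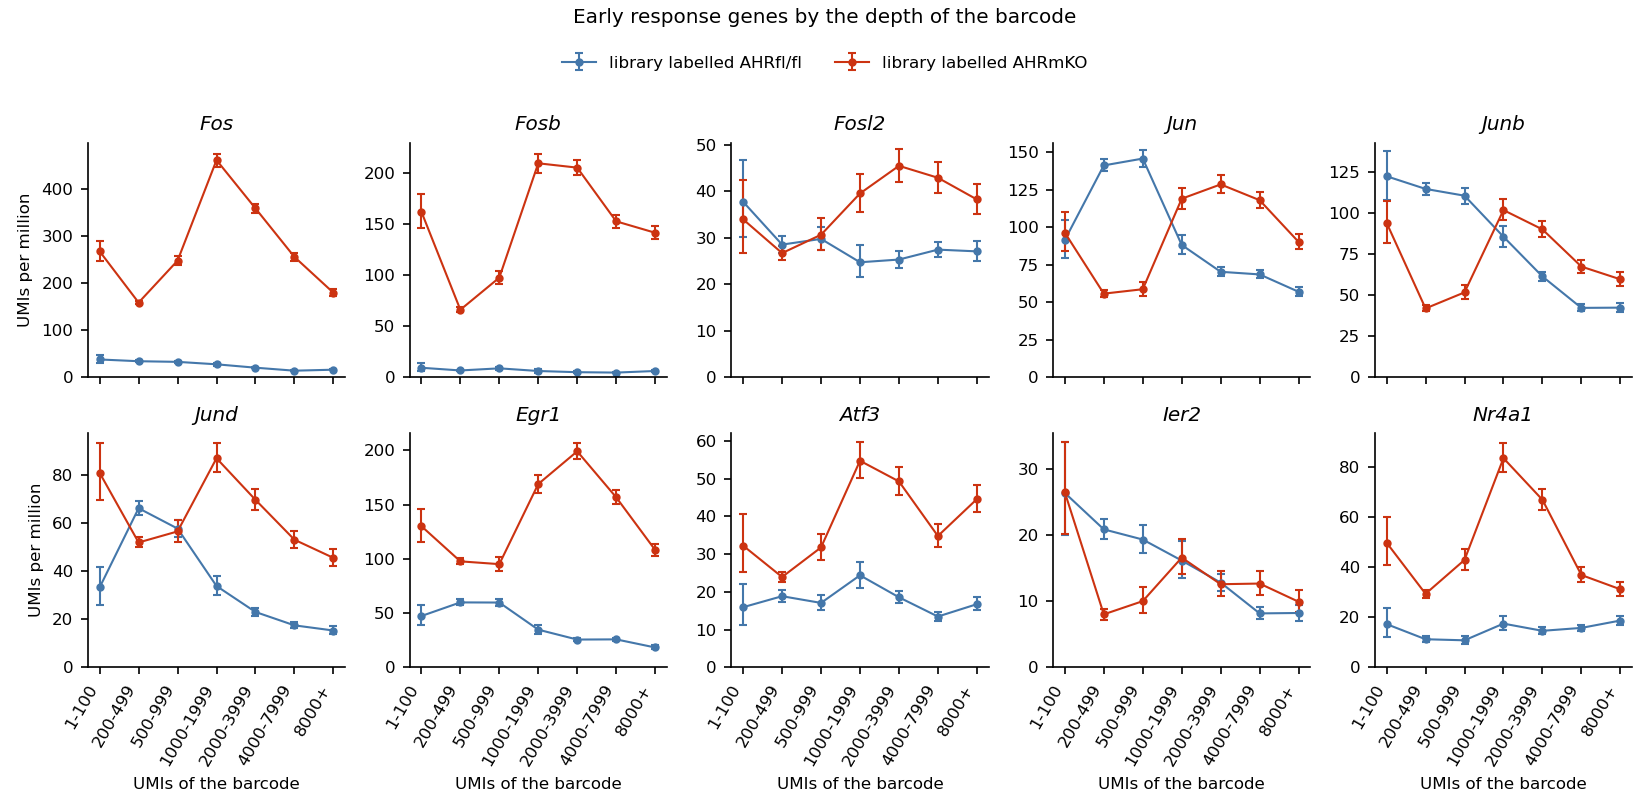
Levels of the 10 genes in CPM by the number of UMIs of the barcode, for the library labelled AHRfl/fl (blue) and AHRmKO (red), with 95% Poisson intervals. Fos, Fosb, Egr1, Atf3 and Nr4a1 are higher in red in every band, while Jun and Junb are higher in blue from 200 to 1000 UMIs and higher in red from 1000 UMIs on.

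Single nuclei were compared after each was thinned to 2000 UMIs. At least 1 UMI of Fos was then found in 3.15% and 29.1% of all nuclei (6.28% and 40.3% without thinning). Fibroblast-like nuclei had Fos in 3.61% and 51.6%, Fosb in 2.39% and 41.3% and Egr1 in 7.95% and 49.9%. Macrophage-like nuclei had Fos in 4.27% and 40.5% but Egr1 in 2.42% and 4.97%, and satellite-like nuclei had Fos in 2.31% and 25.6% and Egr1 in 6.71% and 24.0%. At an equal depth of 200 UMIs, which low barcodes reach as well, Fos was seen in 0.679% and 3.10% of low barcodes and in 0.399% and 5.50% of nuclei, and any of the 10 genes was seen in 9.41% and 10.6% of low barcodes and in 4.94% and 16.9% of nuclei. For Fos and for any of the 10, the share in nuclei was thus below that in low barcodes in the library labelled AHRfl/fl and above it in the library labelled AHRmKO.

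The genes were also counted together in the same nuclei. At 2000 UMIs, 3 or more of the 10 genes were seen in 1.11% (0.96% to 1.27%) and 16.2% (15.4% to 17.0%) of all nuclei. Fibroblast-like nuclei had 2.00% and 45.8%, and 5 or more of the genes in 0.11% and 23.2%. The shares with 3 or more were 1.08% and 18.5% in macrophage-like, 0.86% and 15.2% in satellite-like, 2.93% and 12.3% in endothelial-like and 1.41% and 5.28% in myofibre-like nuclei. In cluster 11 they were 0 of 136 nuclei and 38.3%. The share with at least 1 gene hardly differed in myofibre-like nuclei, at 44.2% and 45.5%.

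**Figure D5:**
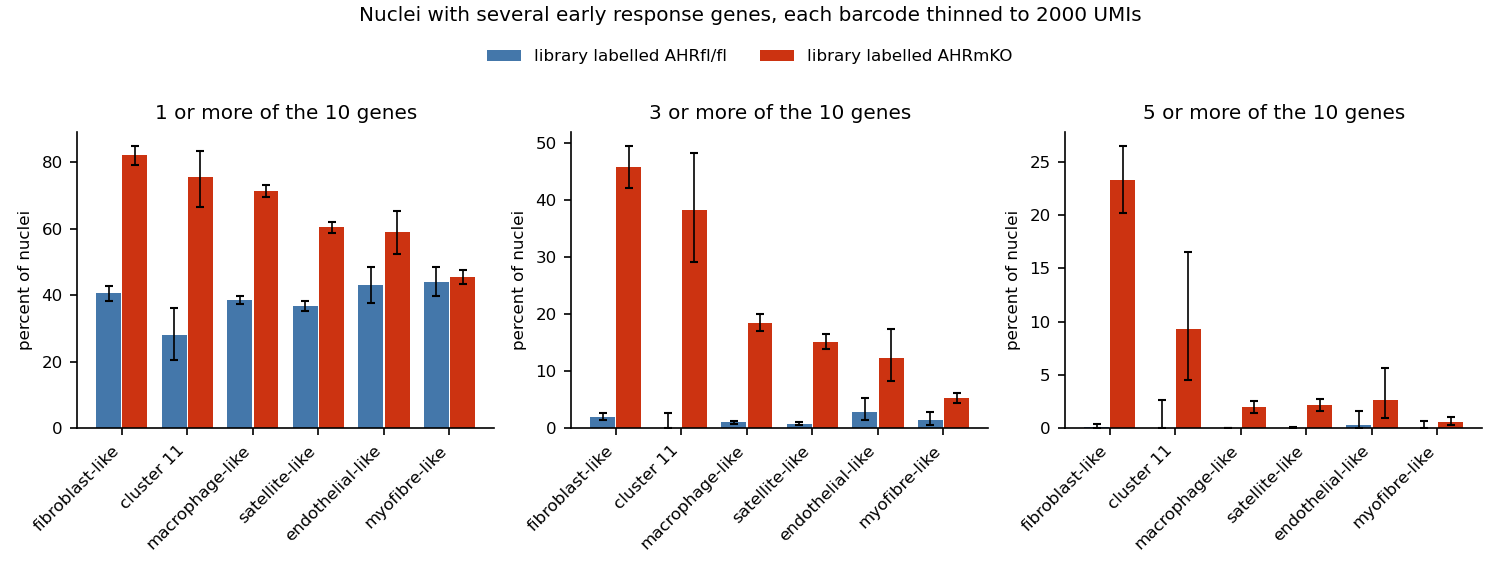
Percent of nuclei with at least 1, 3 or 5 of the 10 genes after thinning to 2000 UMIs, by class, for the library labelled AHRfl/fl (blue) and AHRmKO (red); bars start at 0 and carry 95% Clopper-Pearson intervals. Fibroblast-like nuclei of the library labelled AHRmKO reach 45.8% for 3 or more genes, against 2.00% in the other library.

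Fibroblast-like nuclei of the library labelled AHRmKO split by Fos. Of the 375 with a Fos UMI at 2000 UMIs, 68.0% had Fosb, against 12.8% of the 352 without, and Egr1 was in 67.7% and 31.0%. Jun was in 42.4% and 10.8%, Nr4a1 in 38.9% and 13.1%, and Fosl2 in 15.5% and 12.8%. For Fosl2 the intervals of these shares overlap. In satellite-like nuclei of that library, Egr1 was in 50.7% of 753 Fos-positive and 14.8% of 2190 Fos-negative nuclei and Fosb in 37.2% and 7.12%, while Fosl2 was in 5.98% and 6.53%. In macrophage-like nuclei Fosb was in 28.9% and 12.95%, and Atf3 in 22.1% and 14.2%. These nuclei share 1 library, and the shares are a description. In the library labelled AHRfl/fl, 65 fibroblast-like nuclei had a Fos UMI and 1734 had none. Fosb was in 12.3% and 2.02% of them and Egr1 in 21.5% and 7.44%. Jun was in 13.8% and 10.4%, Nr4a1 in 1.54% and 2.31% and Fosl2 in 3.08% and 6.98%, with intervals that overlap for these last genes.

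Other genes known to answer within minutes to hours, a list of 48 that includes EGR, NR4A, KLF and DUSP members, were counted in the same way. Over all nuclei 9 of 47 tested were at least 2-fold higher and 3 lower, where 3.86% and 13.5% of all genes tested were, with a median log2 ratio of 0.57 against -0.11 for all genes. Klf4, a zinc finger factor, was highest (14.2 and 59.1 CPM) and Klf10, a factor induced by TGF-beta, lowest (59.98 and 24.6 CPM). Jmjd1c (467 and 504 CPM), Mcl1 (181 and 182 CPM) and Zfp36l1 (159.7 and 157.9 CPM) differed little in that sum but differed within classes. Zfp36l1 had log2 ratios of -1.22 in myofibre-like, -0.66 in satellite-like and 0.64 in fibroblast-like nuclei, and Mcl1 of -0.85 in satellite-like and -0.79 in myofibre-like nuclei. Fibroblast-like nuclei again had the most, 22 of 46 higher and 0 lower, where 5.51% and 20.2% of all genes tested were, with Klf4 at 24.8 and 219 CPM. Myofibre-like nuclei had 3 higher and 16 lower of 44, where 16.5% and 18.1% of all genes tested were, and Klf10 at 78.6 and 14.3 CPM. In cluster 6 alone 7 of 33 were higher, where 7.43% of all genes tested were, and 3 were lower, where 26.1% were.

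Relatives and partners of AP-1 in the ATF, CREB, MAF and BATF families had calls near the share over all genes (3.86% higher and 13.5% lower) or below it. Of 22, 0 were 2-fold higher over all nuclei and 1 was lower, Batf (4.66 and 1.87 CPM). Atf1 had the highest ratio, at 75.6 and 118 CPM, and the abundant members Maf (411 and 281 CPM), Atf6 (374 and 311 CPM) and Atf7 (248 and 197 CPM) were somewhat lower. Of 28 kinases and promoter-binding factors upstream of early response genes, 1 was 2-fold higher, Mapk7, which encodes the kinase ERK5 (9.97 and 20.8 CPM). Mef2c was the lowest of them, at 767 and 408 CPM, Mef2a was at 1691 and 1261 CPM and Mrtfa at 300.0 and 315 CPM.

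Of 25 genes known for AP-1 sites, 4 were 2-fold higher and 5 lower, against 3.86% and 13.5% of all genes, with a median log2 ratio of -0.13 against -0.11. Il6, an inflammatory cytokine, had the highest ratio (108 and 169 UMIs), most of it in fibroblast-like nuclei (8.51 and 41.3 CPM). Vim, an intermediate filament gene, was at 405 and 908 CPM and Cd44, a receptor for hyaluronan, at 356 and 484 CPM. Spp1, which encodes osteopontin, was lowest, at 925 and 151 CPM. Heat shock and chaperone genes, another group that stress induces, had 0 of 17 2-fold higher and 4 lower over all nuclei, with a median log2 ratio of -0.24; the shares over all genes are the same 3.86% and 13.5%. In fibroblast-like nuclei 1 was higher (5.51% of all genes), Hspa1a with a log2 ratio of 2.26, and 5 of 17 were lower (20.2%). Satellite-like nuclei had 1 higher (5.17%), Hsph1 at 1.06, and 3 of 17 lower (20.8%). None was higher in the other classes, where 8 of 17 were lower in macrophage-like (17.6%), 6 of 15 in myofibre-like (18.1%) and 7 of 15 in endothelial-like nuclei (17.7%). Over all nuclei Hsph1 was highest (24.1 and 38.3 CPM) and Cryab lowest (65.4 and 8.62 CPM), with Hsp90ab1 at 281 and 116 CPM, Hspa8 at 252 and 128 CPM and Hspa5 at 211 and 119.8 CPM. In the low barcodes 15 of the 17 were lower, where 24.7% of all genes tested were, with a median of -2.76.

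Across the 12 sums of class and library, the genes outside the lists whose log2(CPM + 1) followed Fos most closely were Alg12, Clk1, Gm47800, Nxf1 and Dgkq, with Pearson r between 0.96 and 0.97 out of 16802 genes. Within the group Fosb (0.97) and Jund (0.95) were nearest to Fos, Egr1 came next (0.78), and Ier2 was farthest (0.40). The 12 points come from 2 libraries, so a gene that merely differs between the libraries in every class also scores high. Clk1, a splicing kinase, was at 358 and 673 CPM and Nxf1, the main export receptor of messenger RNA, at 39.7 and 98.3 CPM.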

How the data were processed

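Single-nucleus libraries were made with a 10x Genomics nuclei isolation kit and 3′ HT v3.1 reagents, per the labels' protocols. The deposited values are raw UMI counts per gene and barcode. The authors used Cell Ranger 7.0.1 and mm10, per the submitters' processing notes, and the file headers give Cell Ranger format 4; annotation, intron counting and strand use are not given in the sources used here. The libraries held 19056 and 9015 barcodes of at least 2000 UMIs. No doublets were removed in the main analysis, and Scrublet was run as an alternative. Clusters came from scanpy 1.11.5 (2000 variable genes, the 10 genes and the other early response genes left out, 30 components, 15 neighbours, Leiden resolution 0.8). Counts of each class were added up within a library, and genes with at least 20 UMIs over both libraries entered the counts of 2-fold differences. Intervals are exact Poisson, conditional binomial or Clopper-Pearson (scipy 1.17.1). With 1 library a group there is no test. The ratio step was checked on simulated counts. The genes and lists were chosen with earlier results of these data known. Beside the 10 genes, the text names Ahr, the 3 genes of each list with most UMIs, its highest and lowest ratio, and the 5 genes most like Fos; Junos, Prdx2, the leading genes of clusters and single called genes were named after their values were seen. The alternatives by single cluster, and those that join or drop clusters, were chosen after seeing the data.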

Additional observations from a re-analysis of the deposited data

How the results depend on the processing

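Of 958 alternative values for 60 log2 ratios, 684 stayed within their counting interval, 110 of them identical to the main value (60 because a filter does not act on a ratio), and 269 moved further. Of the 38 ratios of at least 2-fold, 5 alternative values turned direction. Among smaller ratios 45 values, of 13 ratios, took the other sign. Fos was between 3.68 and 5.83 over all nuclei, 4.62 and 6.03 in fibroblast-like and, where it had a value, 2.85 and 4.78 in myofibre-like nuclei. The 5 that turned were Jund in satellite-like nuclei of cluster 9 alone (-0.72) and 4 values in myofibre-like nuclei: Jun at 0.12 and Ier2 at 0.45 with the libraries clustered separately, Ier2 at 1.44 in cluster 6 alone and Jun at 0.69 in cluster 21 alone. In those cases other or fewer nuclei were summed, and all their intervals but that of Ier2 in cluster 6 include 0 (Jun in cluster 21 rests on 7 AHRfl/fl UMIs). The count of genes at least 2-fold higher went from 6 to 10 over all nuclei and from 4 to 8 in satellite-like nuclei when the profile of barcodes of at most 100 UMIs was subtracted, and from 7 to 4 in endothelial-like nuclei thinned to 2000 UMIs, where 9 genes passed the filter. The cause was not tested. In nuclei of at least 4000 UMIs the count was 5 over all nuclei, without Nr4a1. The share over all genes was not counted under these alternatives, so the changed counts have no background to be read against. After subtraction 12 values were missing because a library was left at 0 UMIs: 7 in myofibre-like nuclei (Fosb under both profiles, Fos, Jund, Junb, Egr1 and Ier2 under 1), 3 in satellite-like nuclei (Fos, Junb and Ier2) and 2 in macrophage-like nuclei (Egr1 under both). The counts take AHRfl/fl at 3 UMIs where it was left at 0. No paired analysis was possible because each group has 1 library. Depth limits ratios that rest on few UMIs, such as Fosb in AHRfl/fl myofibre-like nuclei with 2.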

Other observations

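Some nuclei lie outside the compared classes. Cluster 2, unnamed and led by Atp6v0d2, with Ctsk among its leading genes, held 870 nuclei in the AHRfl/fl library, with the highest Fos (49.7 CPM) and Atf3 (92.8 CPM) of the 18 clusters of that library with at least 50 nuclei. The 18 immature myonucleus-like nuclei of the library labelled AHRmKO had 366 CPM of Fos and 350.4 CPM of Fosb, against 6.05 and 2.88 CPM in the 4012 of the other library. Egr1 was there at 445 and 51 UMIs (AHRfl/fl first), or 21.04 and 259 CPM, while Fosl2, at 598 and 5 UMIs, Nr4a1, at 406 and 1, and Atf3, at 130 and 0, rest on few UMIs in the 18 nuclei.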
